A study of Mus musculus with 6 samples.

Results

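The nuclear genes that encode subunits of the oxidative phosphorylation (OXPHOS) complexes were compared between miR-142-deficient and miR-142-sufficient Treg cells. They were the rows of the count matrix whose symbol begins with Ndufa, Ndufb, Ndufc, Ndufs or Ndufv and a number, with Uqcr, with Cox and a number from 4 to 8, or with Atp5, together with Sdha, Sdhb, Sdhc and Sdhd. The rule used names only and took 84 of the 24421 genes in the matrix. Atp5s and Atp5sl entered by name, although they are not structural subunits of ATP synthase, and Ndufa4, counted here with complex I by its name, is known as a subunit of complex IV.

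The samples were RNA-seq libraries of CD4+YFP+ Treg cells sorted from the spleens of female C57BL/6 mice aged 8 to 11 weeks, 3 Foxp3Cre mice (WT) and 3 Foxp3Cre miR-142fl/fl mice (KO). All 6 mice carried the Foxp3Cre allele, which makes a fusion of Cre recombinase and yellow fluorescent protein from the Foxp3 promoter, so that miR-142 was deleted in Foxp3-expressing cells of the KO mice and the sorted cells of both groups had expressed Cre. KO mice of this strain develop systemic autoimmunity, so KO and WT Treg cells also came from different surroundings, and the deletion and the surroundings cannot be told apart.

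Mitochondria oxidise NADH and succinate through complexes I and II, pass the electrons by way of coenzyme Q, complex III and cytochrome c to oxygen at complex IV, and use the resulting proton gradient to make ATP at complex V, the ATP synthase. Complexes I, III, IV and V combine subunits from nuclear genes with a few from the mitochondrial genome, whereas complex II is wholly nuclear encoded. Treg cells are known to rely on mitochondrial respiration more than conventional effector T cells do. The mitochondrially encoded subunits were not analysed here.

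Total counts were between 13883069 and 24042994 per library, and 3 counts corresponded to 0.123 to 0.227 CPM (counts scaled to library size and normalization factor). Mir142b, the annotation on the opposite strand of the targeted Mir142 gene, had 147, 101 and 105 counts in WT and 7, 5 and 5 counts in KO libraries. Reads were counted without regard to strand, so reads of Mir142b and its partner cannot be told apart. Foxp3, the defining transcription factor of Treg cells, lay between 536 and 595 CPM in WT and between 642 and 749 CPM in KO libraries. Of the other 5 Treg markers, Il2ra, the interleukin-2 receptor alpha chain, lay between 726 and 799 CPM in WT and between 2258 and 3073 CPM in KO libraries, also without overlap. Cd4 (1005 to 1043 CPM in WT, 833 to 926 CPM in KO) and Cd3e (626 to 733 CPM in WT, 589.5 to 594 CPM in KO) were below each WT library in each KO library, and the groups overlapped for Ctla4 (315 to 1158 CPM in WT, 673 to 1103 CPM in KO) and Ikzf2 (1237 to 1614 CPM in WT, 1252 to 1576 CPM in KO). The part of these differences in the OXPHOS values was not tested. KO replicate 1 stood apart in transcripts of other cell types. Its summed level of 12 neutrophil genes was 977 CPM, and all 12 exceeded 1 CPM there. That sum was 16.7 and 48.9 CPM in KO replicates 2 and 3 and 4.37 to 5.91 CPM in WT libraries. The 12 monocyte and macrophage genes summed to 3354 CPM in KO replicate 1. They summed to 176 and 84.9 CPM in KO replicates 2 and 3 and to between 55 and 62.1 CPM in WT libraries. The 9 B cell genes summed to 300.1 CPM in KO replicate 1. They summed to 9.08 and 13.2 CPM in KO replicates 2 and 3 and to between 30.2 and 41.3 CPM in WT libraries. The 7 CD8 and NK genes summed to 261 CPM in KO replicate 1, to 111 and 116 CPM in the other KO libraries and to between 37.5 and 45.5 CPM in WT libraries. Most of the KO sums came from Nkg7 (55.7 to 166 CPM in KO, 11 to 15.8 CPM in WT) and Eomes. Eomes lay between 29.8 and 42 CPM in KO and between 4.35 and 6.69 CPM in WT libraries. Klrb1c was lower in each KO library (0.303 to 1.39 CPM, against 2.38 to 3.94 CPM). Cd8b1 and Prf1 overlapped between the groups, and Ncr1 was at most 0.111 CPM. Cd8a was 19 CPM in KO replicate 1, 1.97 and 0.684 CPM in the other KO libraries and at most 0.553 CPM in WT. The 5 erythroid genes summed to 12 CPM in KO replicate 1. They summed to 1.82 and 1.16 CPM in KO replicates 2 and 3 and to between 0.774 and 1.05 CPM in WT libraries. The part of these transcripts in the OXPHOS values was not tested, and the main counts are therefore also given without KO replicate 1. KO replicates 2 and 3, which stay in that fit, exceeded each WT library in these sums, except in that of the B cell genes. In bulk RNA, a change in the number of cells of a type and a change in RNA per cell cannot be told apart.

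The mature miRNAs that the KO cells lack are shown because the question of a direct match to OXPHOS transcripts turns on their seeds (bases 2 to 8, in capitals). Sequences are from RefSeq (GRCm38.p6), on the plus strand of chromosome 11 at chr11:87756867-87756887 and chr11:87756903-87756925.
mmu-miR-142a-5p: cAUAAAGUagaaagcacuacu
mmu-miR-142a-3p: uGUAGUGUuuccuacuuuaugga

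OXPHOS transcripts held few matches to these seeds. The 3′ UTR taken for each gene was the longest among its protein-coding transcripts. Each 3′ UTR was searched on the transcript strand for the 7-base matches to the 5p seed (ACTTTAT, or CTTTATA with an A opposite base 1) and to the 3p seed (ACACTAC, or CACTACA), and for AACACTA, the match to the 3p seed shifted by 1 base, which overlaps ACACTAC. At least 1 match was present in 4 of 73 OXPHOS genes tested (5.48%) and in 3839 of the 11122 tested genes with a 3′ UTR (34.5%). OXPHOS 3′ UTRs were also shorter, with a median of 235 bases against 1185 bases. The matches, in capitals within their sequence from the GENCODE vM21 transcripts, lay at chr12:69744634-69744640 (Atp5s, plus strand), chr7:25625522-25625528 (Atp5sl, plus strand), chrX:106022095-106022101 (Cox7b, plus strand), and chr1:171128632-171128638 and chr1:171128490-171128496 (Sdhc, minus strand).
Atp5s: tatatctagaaAACACTAataaagaatgc
Atp5sl: aatgtgtgattCTTTATAttaaacgtctg
Cox7b: caggagggcacCTTTATAgtaagctgaaa
Sdhc, first match: aagcgctgtacCACTACAccagttcccta
Sdhc, second match: caccaagaaaaACACTACtccaagagatt

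The second Sdhc match also holds AACACTA, beginning 1 base upstream. None of these 4 genes passed the test between KO and WT cells. The log2 fold change was 0.01 for Atp5s (FDR = 0.983), 0.17 for Atp5sl (FDR = 0.391), 0.29 for Cox7b (FDR = 0.0963) and 0.17 for Sdhc (FDR = 0.22). Hence 0 of the 16 OXPHOS genes called higher, described next, held such a match in its 3′ UTR. A match is a description of the sequence, and no match says only that these letters are absent from the longest annotated 3′ UTR.

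The log2 fold changes of OXPHOS subunit genes in KO Treg cells were mostly small and above 0, with a median above 0 in each of the 5 complexes, and a minority of the genes passed the test. Of the 84 genes, 73 passed the filter of more than 1 CPM in at least 3 libraries, and 16 of these (21.9%) were called higher in KO cells (FDR under 0.05, edgeR's quasi-likelihood F test with Benjamini-Hochberg adjustment over all genes tested). Among all 11658 genes tested, 11.6% were called higher and 7.27% lower. In no OXPHOS gene was a lower level called. The count was 0 in the quasi-likelihood test, 0 at an unadjusted p under 0.05, which 15.1% of all genes reached in the lower direction, and 0 in DESeq2. The log2 fold change was above 0 in 65 of the 73 (89%), against 51.8% of all genes tested. Its median was 0.28, an increase of 21.1%, against a median of 0.02 over all genes, and its range was from -0.12 to 0.76. The middle of the distribution lay between 0.16 (lower quartile) and 0.36 (upper quartile).

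**Figure D1:**
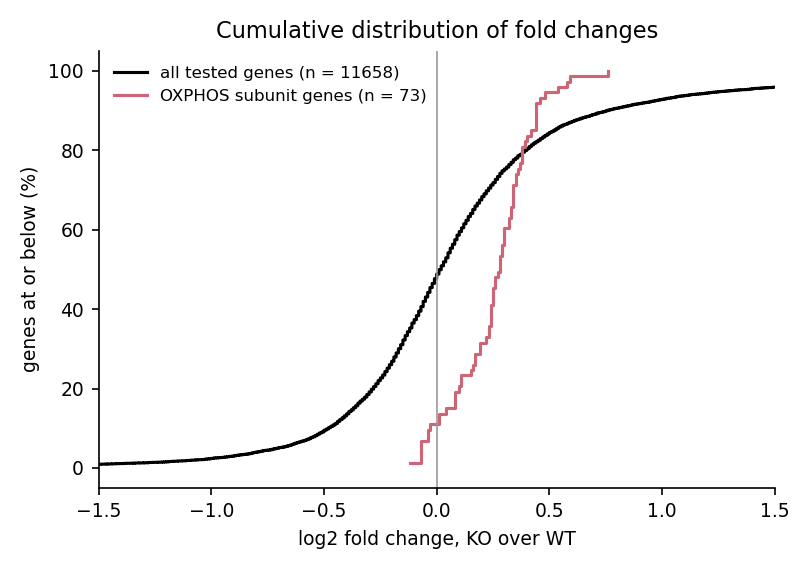
Share of genes (vertical axis, in percent) at or below each log2 fold change of KO over WT (horizontal axis) for the 73 OXPHOS subunit genes tested (red) and all 11658 genes tested (black). The red curve is steep and lies to the right of 0 for 65 genes, whereas the black curve is centred near 0 and has long tails on both sides, cut here at 1.5 in either direction.

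The same difference was seen in each library. Set against the mean of the WT libraries, the median log2 difference over the OXPHOS genes tested was 0.07, -0.03 and -0.06 for the WT libraries and 0.30, 0.19 and 0.28 for the KO libraries, in the order of their replicate numbers. Over all genes tested it stayed between -0.01 and 0.02 in every library. KO replicate 1 had the highest value of 34 OXPHOS genes, KO replicate 3 of 24 and KO replicate 2 of 8, and a WT library had the highest value of the remaining 7. For 44 OXPHOS genes the 3 KO libraries all exceeded the 3 WT libraries, and for 0 they all fell short of them. For all genes tested these shares were 22.2% above and 18.8% below.

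The summed level of the 84 genes was 5176, 4809 and 4769.7 CPM in WT and 6085, 5645 and 6050.1 CPM in KO replicates 1, 2 and 3. The groups did not overlap, and the mean rose from 4918 ± 224 to 5927 ± 244 CPM (SD, n = 3 per group), by 20.5%. As a share of all counts, without normalization factors, OXPHOS genes took 0.542%, 0.488% and 0.485% in WT and 0.589%, 0.537% and 0.596% in KO libraries. On this scale KO replicate 2 lay just below WT replicate 1, so the groups overlapped.

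**Figure D2:**
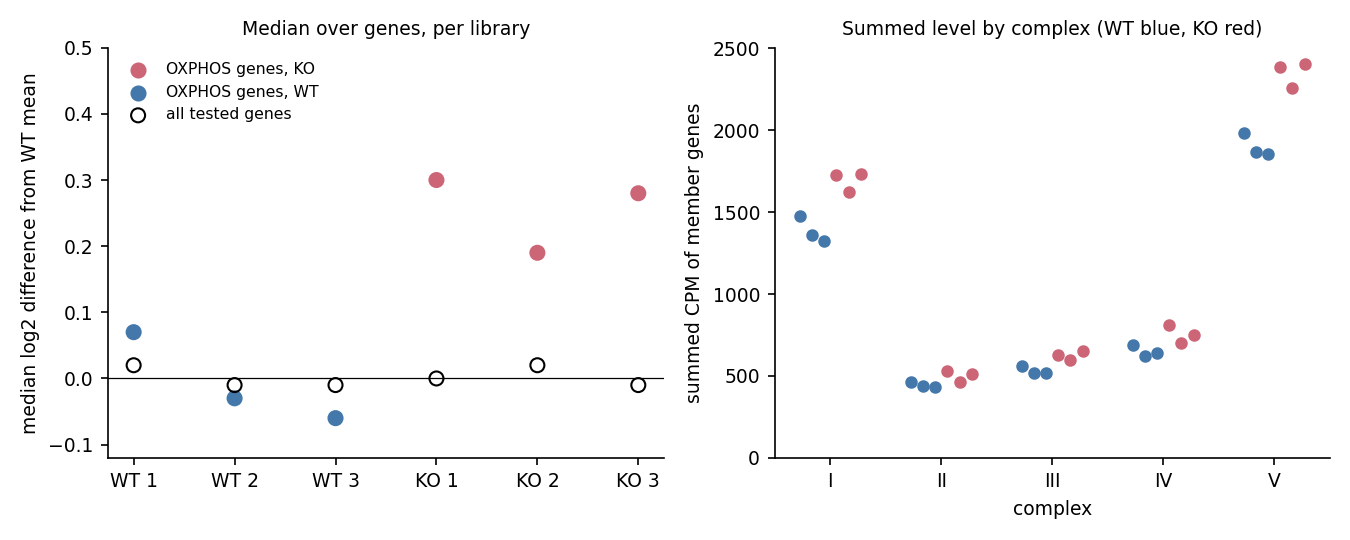
Left, the median log2 difference from the mean of the WT libraries over OXPHOS genes (filled) and over all genes tested (open), for each library. Right, summed CPM of the member genes of each complex in the 3 WT (blue) and 3 KO (red) libraries, replicates 1 to 3 from left to right. The filled KO points lie above the filled WT points on the left, where the open points stay near 0, and the KO points lie above the WT points for each complex on the right, by the least in complex II, where KO replicate 2 is at 466 CPM and WT replicate 1 at 463 CPM.

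Without KO replicate 1, 9 OXPHOS genes were called higher, 8 of them among the 16 (12.3% of OXPHOS genes, near the 9.69% of all genes in that fit), and the median log2 fold change was 0.23. The summed level of the other 2 KO libraries averaged 5848 CPM. The call was lost in that fit for Atp5b, Atp5c1, Atp5d, Cox6c, Ndufa8, Ndufb7, Ndufv1 and Sdhd. The number of calls depended on other single libraries too. It was 5 without WT replicate 1, 1 without WT replicate 2, 1 without WT replicate 3, 21 without KO replicate 2 and 6 without KO replicate 3. In those fits 6.85%, 1.37%, 1.37%, 28.8% and 8.22% of the OXPHOS genes were called higher, against 5.78%, 4.18%, 4.81%, 12.3% and 7.62% of all genes. The share of OXPHOS genes called was thus below that of all genes without WT replicate 2 or WT replicate 3. A correction for GC content and transcript length within each library left 5 calls (6.85%, against 9.43% of all genes) and a median log2 fold change of 0.15, against -0.07 over all genes, so here too the share of OXPHOS genes called was below that of all genes. OXPHOS transcripts were short, with a median of 908 bases against 2971 bases over all genes tested, and of similar GC content, with a median of 51.3% against 50.2%. The direction changed less than the calls. In these 7 fits the log2 fold change was above 0 for between 55 and 69 of the 73 genes, and the median over OXPHOS genes exceeded that over all genes by 0.22 to 0.32 on the log2 scale.

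**Figure D3:**
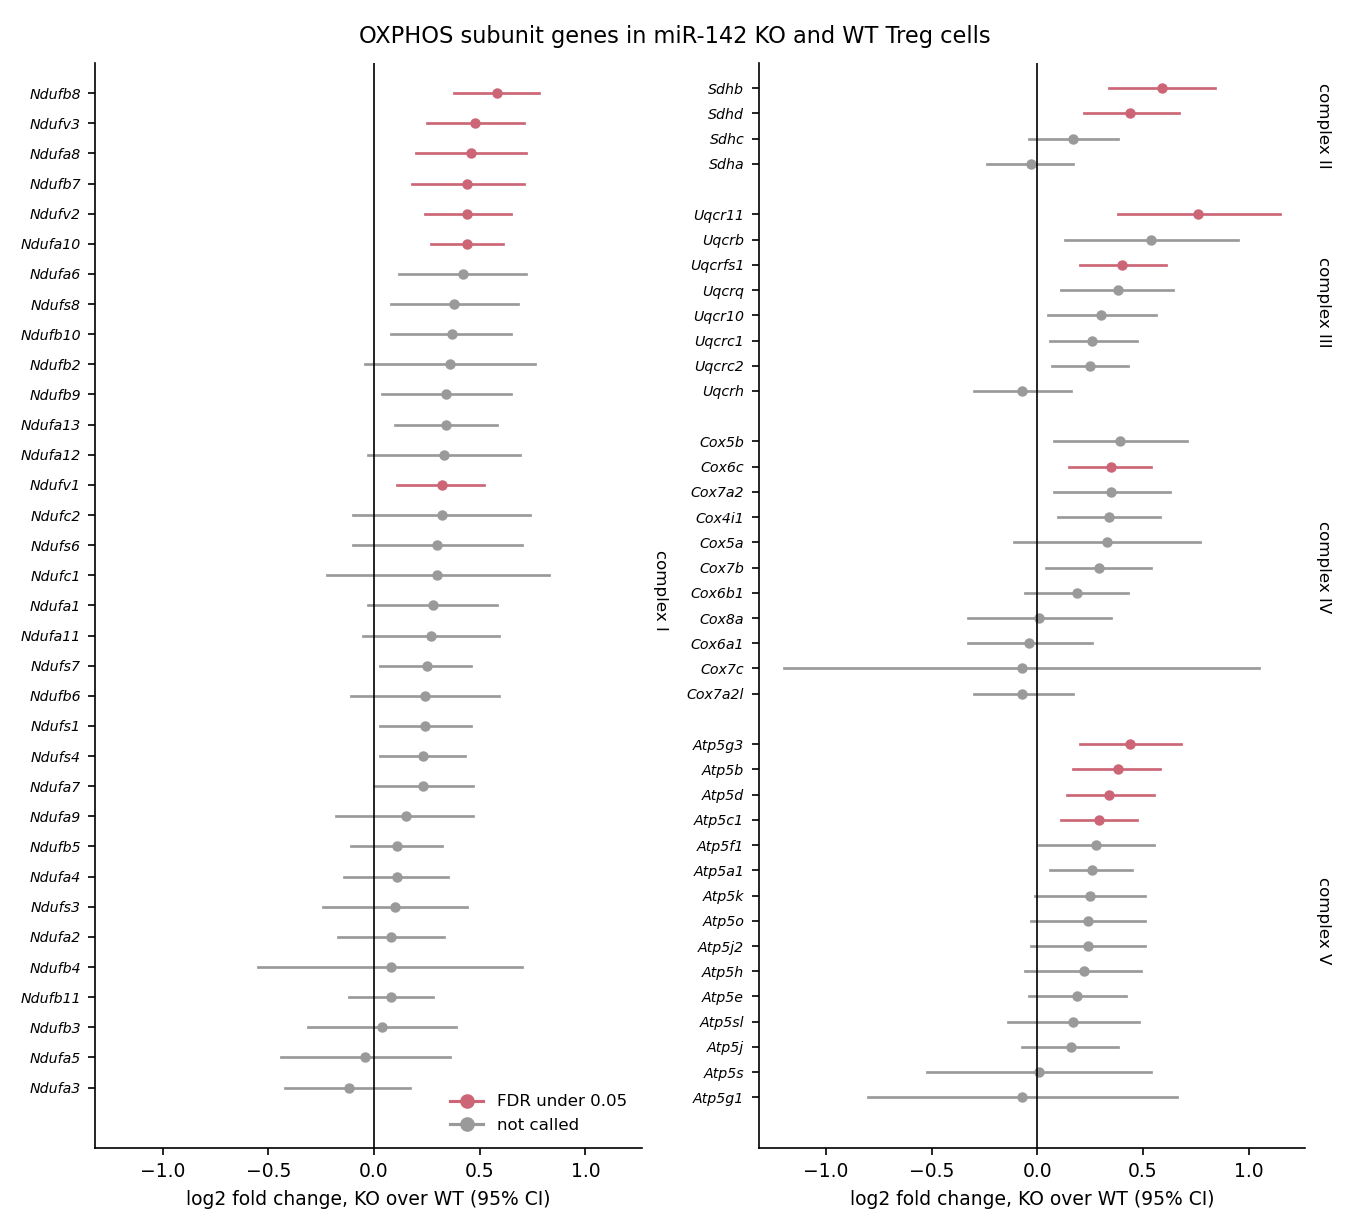
Log2 fold change of KO over WT with its 95% confidence interval for 72 of the 73 OXPHOS genes tested, by complex. Red marks the 16 genes with an FDR under 0.05, each to the right of 0, and 8 of the 72 points lie to the left of 0.

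Complex I, the NADH dehydrogenase, had 37 member genes, of which 35 were tested. Of these, 7 were called higher (20%, against 11.6% of all genes), the log2 fold change was above 0 in 33 (94.3%, against 51.8%), and the median was 0.28. The summed level was 1479, 1360.4 and 1325 CPM in WT and 1728, 1625 and 1735 CPM in KO libraries, with no overlap. The calls included all 3 genes of the flavoprotein tip, where NADH is oxidised. Ndufv1, which binds NADH and the flavin, had 71.6, 63.6 and 63.2 CPM in WT and 79.4, 82.1 and 85.9 CPM in KO libraries (log2 fold change 0.32, SE 0.09, FDR = 0.0439). This call did not survive the removal of any single library. Ndufv2, an iron-sulphur subunit of the tip, rose from 74.5, 69.1 and 63 CPM to 91.3, 94.4 and 95.2 CPM (log2 fold change 0.44, SE 0.09, FDR = 0.0161). Ndufv3, an accessory subunit beside them, rose from 51.7, 44.6 and 48.3 CPM to 64.6, 72.5 and 64.9 CPM (log2 fold change 0.48, SE 0.10, FDR = 0.0161). For each of the 3 genes the KO libraries lay above the WT libraries.

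The other 4 calls in complex I were accessory subunits outside the catalytic core. Ndufb8, a subunit of the membrane arm, had the smallest FDR of all OXPHOS genes. Its levels were 41.3, 39.4 and 38.6 CPM in WT and 61.8, 56.6 and 59.7 CPM in KO libraries (log2 fold change 0.58, SE 0.09, FDR = 0.00552). The KO values were close together and well above the WT values, and of the 16 genes Ndufb8 alone was called in each of the 6 fits that left out 1 library. It was called in 10 of 11 other settings, and lost with the replicate block and GC and length offsets together. Ndufa10, an accessory subunit related to nucleoside kinases, rose from 68.2, 66.3 and 67.3 CPM to 91.9, 88.3 and 93.3 CPM (log2 fold change 0.44, SE 0.07, FDR = 0.00898). Ndufa8 and Ndufb7 face the intermembrane space and carry cysteine pairs that form disulphide bonds. Ndufa8 rose from 35.6, 32.3 and 31.1 CPM to 49.5, 40.7 and 45.6 CPM (log2 fold change 0.46, SE 0.11, FDR = 0.0298). Ndufb7 rose from 43.2, 36.9 and 39.1 CPM to 58.6, 48 and 55.6 CPM (log2 fold change 0.44, SE 0.11, FDR = 0.0342). In both, KO replicate 1 had the highest value.

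The lowest log2 fold change among OXPHOS genes was that of Ndufa3, an accessory subunit, at -0.12 (95% confidence interval -0.42 to 0.17, FDR = 0.53). Ndufa4 had a log2 fold change of 0.11 (FDR = 0.521), and its paralogue Ndufa4l2 was close to 0, with 1 count in WT replicate 3 alone. Per kilobase of transcript, the highest WT level in complex I was that of Ndufa6, an accessory subunit of the LYR family, at 96.5 CPM per kb, and the lowest among tested genes that of Ndufb2, a membrane-arm subunit, at 2.66 CPM per kb. The rank of Ndufb2 depends on the 4371-base transcript taken for it. In WT it had a mean of 11.6 CPM, above the 2.92 CPM of Ndufb4, which had 3.01 CPM per kb over 971 bases. Ndufa6 had a log2 fold change of 0.42 (FDR = 0.0628) and Ndufb2 of 0.36 (FDR = 0.183), and in both the KO libraries lay above the WT libraries.

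Complex II, succinate dehydrogenase, also serves in the tricarboxylic acid cycle and has 4 subunits, all tested, of which 2 were called higher (50%, against 11.6% of all genes). Its genes did not move together. Sdhb, the iron-sulphur subunit, had 79.7, 70.5 and 76 CPM in WT and 127, 101 and 112 CPM in KO libraries (log2 fold change 0.59, SE 0.11, FDR = 0.0117). Sdhd, one of the membrane anchors, rose from 49.9, 51.1 and 47.3 CPM to 74.2, 64 and 63.2 CPM (log2 fold change 0.44, SE 0.10, FDR = 0.0213). Sdhb alone of the 16 genes was called in all 11 settings that kept the 6 libraries and the threshold, but lost its call without WT replicate 2 and without WT replicate 3. Without KO replicate 1 the FDR was 0.0149 for Sdhb and 0.0505 for Sdhd. Sdhd also lost its call when any 1 WT library was left out. Sdhc, the other anchor, had 59.2, 58.3 and 57.8 CPM in WT and 72, 61.8 and 63.6 CPM in KO libraries. These groups did not overlap either, but the log2 fold change of 0.17 did not pass the test (95% confidence interval -0.04 to 0.38, FDR = 0.22). Sdha, the flavoprotein subunit that oxidises succinate, had 274, 260.0 and 252 CPM in WT and 258, 239 and 271 CPM in KO libraries. Its groups overlapped and its log2 fold change was -0.03 (95% confidence interval -0.24 to 0.17, FDR = 0.805).

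The ratio of Sdhb to Sdha counts within a library does not depend on the normalization between libraries, and was computed after the values above had been seen. It was 0.291, 0.271 and 0.301 in WT and 0.493, 0.423 and 0.414 in KO libraries, a geometric mean 1.54-fold higher in KO cells. The ratio of Sdhd to Sdha counts was 0.182, 0.197 and 0.188 in WT and 0.287, 0.268 and 0.234 in KO libraries, 1.39-fold higher. The ratio of Sdhc to Sdha counts was 0.216, 0.224 and 0.229 in WT and 0.279, 0.258 and 0.235 in KO libraries, 1.15-fold higher. In each of these ratios the groups did not overlap. The ratios are given as a description, without a test, because they were formed from values already seen. Sdhaf1, an assembly factor that helps to place the iron-sulphur clusters in the Sdhb protein, is no subunit but was among the genes of the assembly list described further on. It rose from 52.6, 46.2 and 53.5 CPM to 76.7, 96.2 and 88 CPM (log2 fold change 0.78, SE 0.11, FDR = 0.00528).

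**Figure D4:**
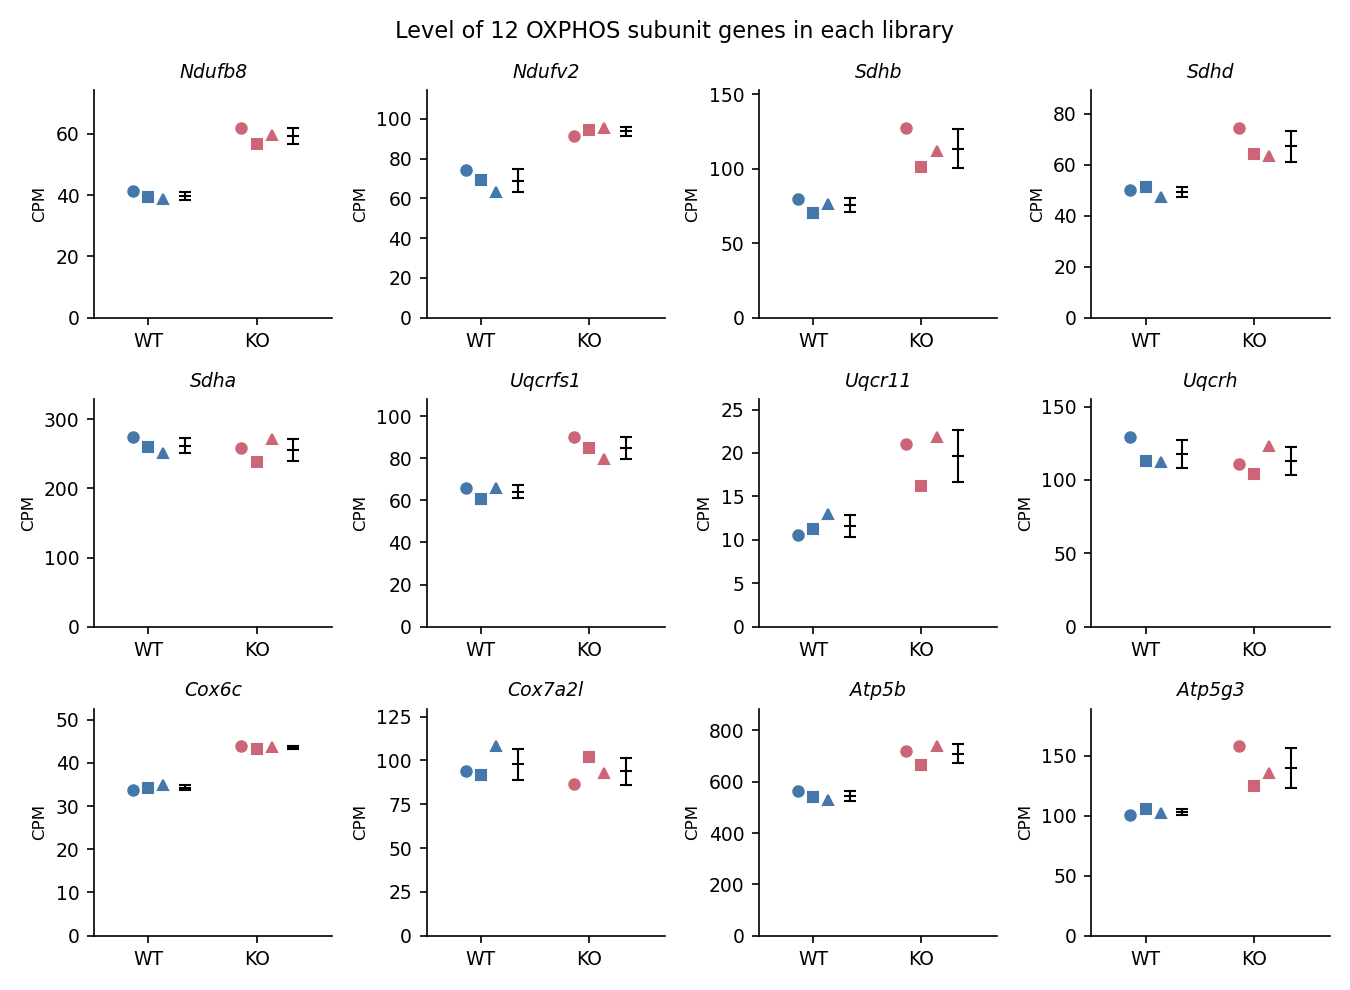
Level in CPM of 12 OXPHOS genes in each WT (blue) and KO (red) library, with circles, squares and triangles for replicates 1, 2 and 3 and black bars for the mean ± SD (n = 3 per group). The KO points lie above the WT points except in Sdha, Uqcrh and Cox7a2l, where the groups overlap.

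Complex III, the cytochrome bc1 complex, had 8 member genes, all tested, and 2 were called higher (25%, against 11.6% of all genes). Both calls were lost when any 1 WT library was left out. That of Uqcr11 was also lost without KO replicate 3, and that of Uqcrfs1 with GC and length offsets. The log2 fold change was above 0 in 7 (87.5%, against 51.8%), its median was 0.34, and in those 7 the KO libraries all lay above the WT libraries, as they did in 22.2% of all genes. The summed level was 559, 519 and 515 CPM in WT and 629, 597 and 653 CPM in KO libraries. Uqcrfs1, the Rieske iron-sulphur protein, rose from 65.8, 60.6 and 65.9 CPM to 89.9, 84.9 and 79.4 CPM (log2 fold change 0.40, SE 0.09, FDR = 0.0203). Uqcr11, a small accessory subunit, had the largest change of the OXPHOS genes tested (log2 fold change 0.76, SE 0.16, FDR = 0.0206). It was also a low-level gene, with 10.6, 11.2 and 13 CPM in WT and 21, 16.2 and 21.8 CPM in KO libraries. Uqcrb and Uqcrq, small subunits near the quinone sites, had log2 fold changes of 0.54 (FDR = 0.0696) and 0.38 (FDR = 0.0566) and were not called. The core proteins Uqcrc1 (0.26, FDR = 0.0788) and Uqcrc2 (0.25, FDR = 0.064) were not called either. Uqcrh, the hinge protein, was the exception in direction. It had 129, 113 and 112 CPM in WT and 111, 104 and 123 CPM in KO libraries, with overlap and a log2 fold change of -0.07 (95% confidence interval -0.30 to 0.16, FDR = 0.667). Uqcrh had the highest WT level per kilobase in the complex, 216 CPM per kb, and Uqcrb the lowest, 19.2 CPM per kb.

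Complex IV, cytochrome c oxidase, had 18 member genes, of which 11 were tested and 1 was called higher. Its share of calls, 9.09%, was near the 11.6% of all genes, although the median log2 fold change was 0.29 and 8 of 11 values were above 0. The summed level was 690.4, 624 and 640.3 CPM in WT and 811, 700.1 and 748 CPM in KO libraries, without overlap. Cox6c was the gene called, with 33.8, 34.1 and 34.9 CPM in WT and 43.8, 43.2 and 43.6 CPM in KO libraries (log2 fold change 0.35, SE 0.08, FDR = 0.0289). The KO values all lay above the WT values, but the call was lost in 5 of the 6 fits that left out 1 library and in 7 of 11 other settings, among them the 3 edgeR tests together. Calls of Atp5b, Atp5c1, Atp5d, Ndufa8 and Ndufb7 were likewise lost in 5 of the 6 fits. Cox4i1, an early-assembled subunit that contacts the catalytic core, had 187, 154 and 157 CPM in WT and 223, 199.9 and 207 CPM in KO libraries, and a log2 fold change of 0.34 that was not called (FDR = 0.0573). It had the highest WT level per kilobase in the complex, 217 CPM per kb.

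Several complex IV subunits exist as tissue-specific pairs, and the ubiquitous form carried nearly all of the counts in these Treg cells. The forms typical of heart and skeletal muscle, Cox6a2, Cox7a1 and Cox8b, and the testis forms Cox6b2, Cox7b2 and Cox8c, did not pass the filter. Cox7a1 lay between 0.553 and 0.958 CPM and Cox6b2 between 0.431 and 0.984 CPM over the 6 libraries, Cox8b reached at most 0.167 CPM, and Cox7b2 and Cox8c had 0 counts in every library. Cox4i2, the paralogue of Cox4i1 known from lung, had 0, 0 and 2 counts in WT and 18, 1 and 1 counts in KO replicates 1, 2 and 3. Cox6a2 had 0 counts in each WT library and 24, 1 and 0 counts in KO replicates 1, 2 and 3. KO replicate 1 thus held most of the counts of Cox4i2 and all but 1 of those of Cox6a2, and 10.3% of the exon bases of Cox6a2 overlap the myeloid integrin gene Itgad. The part of the other cell types in that library was not tested. Of the ubiquitous forms, Cox7a2 had a log2 fold change of 0.35 (FDR = 0.0772), Cox7b of 0.29 (FDR = 0.0963) and Cox6b1 of 0.19 (FDR = 0.257). Cox6a1, with a log2 fold change of -0.04, Cox8a, with 0.0079, and Cox7a2l, a factor of respiratory supercomplexes, with -0.07, were close to 0, with intervals that reach from -0.33 to 0.26, from -0.33 to 0.35 and from -0.30 to 0.17. The lowest tested gene per kilobase was Cox7c, at 2.74 CPM per kb. Its log2 fold change of -0.07 had an interval of -1.20 to 1.05.

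Complex V, ATP synthase, had 17 member genes, of which 15 were tested and 4 called higher (26.7%, against 11.6% of all genes). All 4 calls were lost when any 1 WT library or KO replicate 3 was left out. They were also lost with library size only, with the replicate block and with GC and length offsets. The log2 fold change was above 0 in 14 (93.3%, against 51.8%), with a median of 0.24. The summed level was 1985, 1867 and 1857 CPM in WT and 2385, 2257 and 2405 CPM in KO libraries, without overlap. The genes called were Atp5b, Atp5c1, Atp5d and Atp5g3, and a link to a part of the enzyme was not tested. Atp5e, at a log2 fold change of 0.19 with overlapping groups, was not called (FDR = 0.214). Atp5b, the catalytic beta subunit, was the gene with the highest level per kilobase of all OXPHOS genes in WT cells, 284 CPM per kb, and held 11.1% of the OXPHOS counts there. It rose from 564, 542 and 528 CPM to 721, 667 and 738 CPM (log2 fold change 0.38, SE 0.09, FDR = 0.0253). Atp5c1, the gamma subunit that turns within the head, rose from 165, 159.9 and 152 CPM to 188, 197 and 200.1 CPM (log2 fold change 0.29, SE 0.08, FDR = 0.0379). Atp5d, the delta subunit of the stalk, rose from 127, 111 and 119.7 CPM to 156, 141 and 157 CPM (log2 fold change 0.34, SE 0.09, FDR = 0.0364). Atp5a1, the alpha subunit that alternates with beta in the head, had a log2 fold change of 0.26 that was not called (95% confidence interval 0.06 to 0.45, FDR = 0.0701), and its KO libraries all lay above the WT libraries.

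The membrane ring of ATP synthase is built from subunit c, which the paralogues Atp5g1, Atp5g2 and Atp5g3 encode as the same mature protein. Atp5g3 rose from 101, 106 and 102 CPM to 158, 125 and 136 CPM (log2 fold change 0.44, SE 0.10, FDR = 0.0259), and KO replicate 1 was the highest. Atp5g1 had 1.23, 0.984 and 1.38 CPM in WT and 1.39, 0.833 and 1.16 CPM in KO libraries, with a log2 fold change of -0.07 (95% confidence interval -0.80 to 0.66). Atp5g2 did not pass the filter, at 0.308, 0.533 and 0.387 CPM in WT and 0.666, 0.757 and 0.753 CPM in KO libraries. In WT cells the levels per kilobase were 142 CPM per kb for Atp5g3, 0.254 CPM per kb for Atp5g1 and 0.56 CPM per kb for Atp5g2. The order of Atp5g1 and Atp5g2 depends on the transcripts taken, of 4715 and 731 bases. In CPM the WT mean was higher for Atp5g1 (1.2 CPM) than for Atp5g2 (0.409 CPM). The low level of Atp5g2 is uncertain, since 87.4% of its 51-base windows, the length of a read, also occur in transcripts of other genes.

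Shared sequence limits the levels of several OXPHOS genes, many of which have processed pseudogenes. In 17 of the 84 genes, more than 20% of the 51-base windows also occur in annotated transcripts of another gene, among them Atp5l (84.8%), Cox7c (52.9%), Uqcrb (42.5%), Uqcrc2 (24.8%) and Ndufs5 (30.8%, 0 counts in all 6 libraries). Reads that fit more than 1 place may have been left out or split in the authors' counting, so the levels of these genes are uncertain. Copies without an annotated transcript were not analysed here. Exons of 19 OXPHOS genes overlap those of another gene in the matrix, as in Cox4i1, where 20.1% of exon bases lie in Emc8, and Uqcrc2, where 26.6% lie in Pdzd9, and reads there cannot be told apart without strand. The 16 genes called were less affected. None of them exceeded 20%, the highest share was 13.8% in Cox6c, 11 had no shared window, and 0 overlapped an exon of another gene in the matrix.

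Promoters of OXPHOS genes are known to hold sites for the factors NRF1, GABP (an ETS factor) and YY1, so these motifs were searched on both strands from 250 bases before to 50 bases after the RefSeq start (GRCm38.p6), for the 62 tested OXPHOS genes with an entry. The NRF1 motif CGCATGCG was found in 7 (11.3%), against 4.54% of all tested genes and 2.07% of all genes in the promoter table. The YY1 motif AAGATGGC was found in 11 (17.7%), against 5.54% and 3.19%. The ETS motif CCGGAAG was found in 15 (24.2%), against 21.5% and 9.93%. Of the 62, 28 held at least 1 motif and 34 held none. The 15 called genes with an entry held NRF1 motifs in 2 (13.3%), ETS motifs in 4 (26.7%) and a YY1 motif in 1 (6.67%). The windows of all motif matches in called genes are shown with the motif in capitals. They lie in Uqcr11 (NRF1 at chr10:80406808-80406837 and ETS at chr10:80406870-80406898, minus strand), Ndufa8 (chr2:36049329-36049358, minus strand), Ndufb8 (chr19:44555393-44555415, minus strand), Sdhb (chr4:140961266-140961294, plus strand), Sdhd (chr9:50603878-50603906, minus strand) and Ndufb7 (chr8:83566727-83566755, plus strand).
Uqcr11, NRF1: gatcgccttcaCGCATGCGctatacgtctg
Ndufa8, NRF1: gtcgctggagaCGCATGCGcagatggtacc
Ndufb8, YY1: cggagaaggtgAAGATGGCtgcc
Sdhb, ETS: gctcggagaaaCCGGAAGcggccttccac
Sdhd, ETS: ccgtctcctgcCTTCCGGttcacgcttca
Ndufb7, ETS: gcctagatgacCCGGAAGacactgaaggg
Uqcr11, ETS: ttctctcctccCCGGAAGtagatgtcaat

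None of these factors was called higher in KO cells. Nrf1 had 74, 74.8 and 79.2 CPM in WT and 72.8, 80.9 and 74 CPM in KO libraries (log2 fold change -0.0021, FDR = 0.99). Gabpa, the DNA-binding subunit of GABP, had a log2 fold change of -0.16 (FDR = 0.353), Yy1 of -0.17 (FDR = 0.205), and Tfam, which packages and transcribes mitochondrial DNA, of -0.02 (FDR = 0.926). Of 15 tested regulators of mitochondrial genes, 0 were called higher and 1 lower (6.67%, near the 7.27% of all genes) in the quasi-likelihood test. At an unadjusted p under 0.05, 3 were higher and 3 lower (20% each), against 19.7% and 15.1% of all genes. Their log2 fold changes lay between -0.93 and 0.50, with 11 of the 15 below 0. Esrra (0.50, FDR = 0.0789), Myc (0.27, FDR = 0.107) and Gabpb1 (0.22, FDR = 0.14) were above 0 and not called. In these 3 genes the KO libraries all lay above the WT libraries, and in 3 others of the list they all lay below. These shares (20% each) were near the 22.2% above and 18.8% below among all genes tested. The gene called was Pprc1, a coactivator related to PGC-1, which fell from 108, 94.2 and 93.3 CPM to 70.3, 73.4 and 77.7 CPM (log2 fold change -0.42, SE 0.09, FDR = 0.023). Its groups did not overlap.

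Other genes of the pathway, from lists that were chosen with earlier results known, are given beside the subunits. Among 6 tested subunits or partners that the naming rule leaves out, 1 was called higher (16.7%, against 11.6% of all genes) and the median log2 fold change was 0.31. The gene called was Atpif1, the inhibitor of ATP synthase, which rose from 22.5, 20.6 and 18 CPM to 33.6, 26.4 and 29.6 CPM (log2 fold change 0.55, SE 0.14, FDR = 0.0338). Cyc1, the cytochrome c1 subunit of complex III, had a log2 fold change of 0.29 (FDR = 0.0679). Of 48 tested assembly factors, 2 were called higher and 0 lower in the quasi-likelihood test, also 0 lower at an unadjusted p under 0.05, and the median log2 fold change was -0.03. The called ones were Sdhaf1, given above, and Acad9, a complex I assembly factor, which rose from 42.2, 41.6 and 43.8 CPM to 51, 62.1 and 59.3 CPM (log2 fold change 0.43, SE 0.10, FDR = 0.0267). Of 14 tricarboxylic acid cycle genes, 2 were called higher (14.3%, against 11.6% of all genes) and 11 had a log2 fold change above 0, with a median of 0.20. At an unadjusted p under 0.05 in the quasi-likelihood test, 6 were higher (42.9%, against 19.7% of all genes) and 0 lower. In 8 of the 14 the KO libraries all lay above the WT libraries, as in 22.2% of all genes. One of the 2 called was Mdh2, mitochondrial malate dehydrogenase, which rose from 176, 171 and 173 CPM to 229, 194 and 231 CPM (log2 fold change 0.33, FDR = 0.0482). Of 13 genes of coenzyme Q synthesis, 1 was called higher, Adck3 (log2 fold change 0.40, FDR = 0.0241), and the median was 0.04. The shares called in the assembly and coenzyme Q lists were thus no greater than the 11.6% of all genes, and that of the tricarboxylic acid cycle genes was near it. Differences between the lists were not tested.

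**Figure D5:**
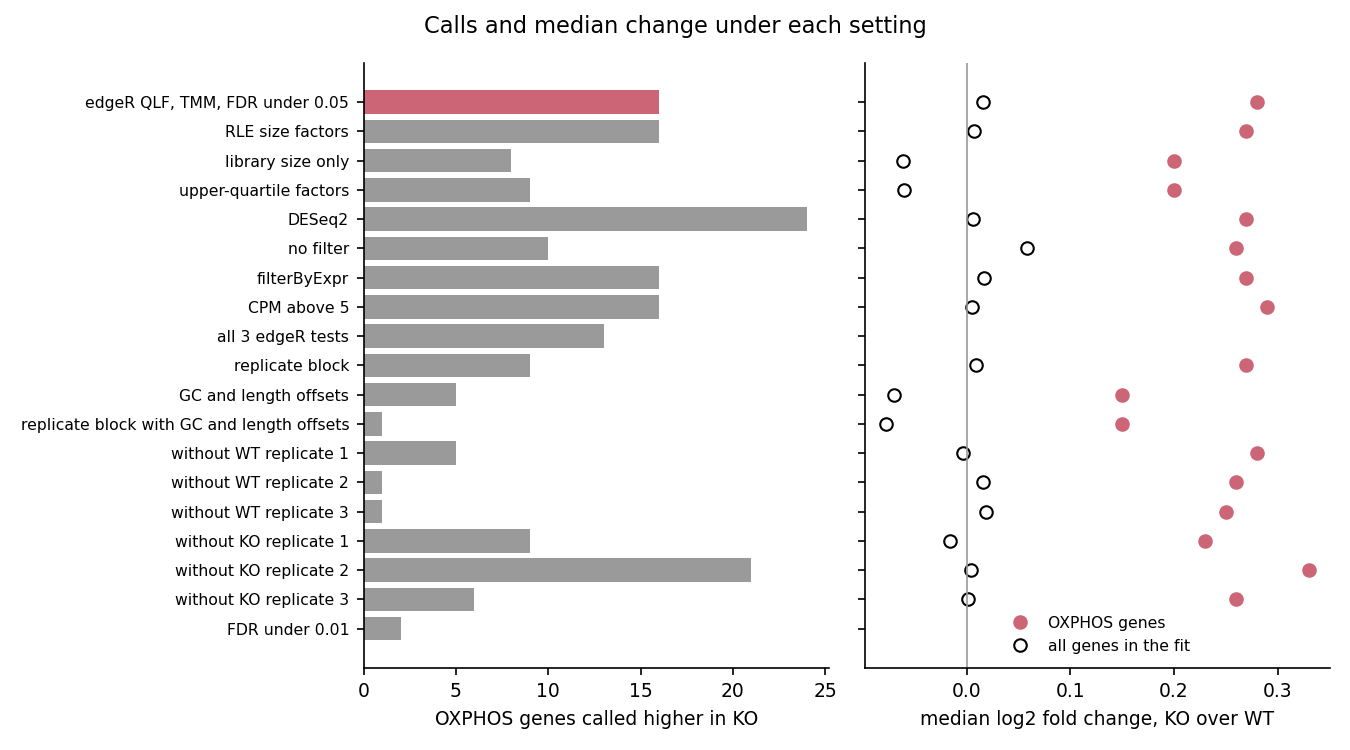
Number of OXPHOS genes called higher in KO cells (left) and median log2 fold change (right, filled for OXPHOS genes, open for all genes in the fit) under each setting. The count ranges from 1 to 24 around the 16 of the quasi-likelihood test with TMM normalization, while the median over OXPHOS genes is above that over all genes in each fit shown.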

How the data were processed

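Per the labels and the study's methods, reads of 51 bases, single end, were aligned with HISAT to mm10 (GRCm38) and counted per gene without regard to strand. CASAVA and edgeR also stand in the submitters' processing notes. The authors deposited raw counts, with no normalization, and all 6 sample columns were used. CPM were computed on TMM effective library sizes. Genes with CPM above 1 in at least 3 libraries were tested with the quasi-likelihood F test of edgeR 4.0.16 (R 4.3.3) without robust estimation, over all genes, at an FDR of 0.05. The steps were tested on simulated data, with changes larger than that of any OXPHOS gene tested. That test therefore does not cover calls at changes of the size seen here. DESeq2 1.42.0, other normalizations and filters, a replicate block, offsets for GC content and length (mgcv 1.9.3) and leaving out each library were alternatives. The labels do not name separate mice, and the methods give 3 mice per group. Positions, transcript lengths and 3′ UTRs are those of GENCODE vM21 (23384 genes matched by symbol, 678 by synonym, 359 not matched). Lengths are those of the principal transcript, and the 3′ UTR is the longest among the protein-coding transcripts of the gene. The members, lists, motifs and named genes were chosen with earlier results of these data known. Named were all genes called, the paralogue groups, the Sdh genes, the genes of highest and lowest level per kilobase in each complex, and the 3 uncalled genes with the smallest p. Genes of further interest (Ndufa3, Atp5a1, Atp5e, Uqcrc1, Uqcrc2, Atp5s, Atp5sl, Atp5l, Ndufs5, Esrra, Myc, Gabpb1) were added after their values were seen. Each marker list of another cell type was read in each library. Results for a few individual genes were left out of the text.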

Additional observations from a re-analysis of the deposited data

Results flagged for a closer look

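Among OXPHOS genes that did not pass the filter and so entered no test, 2 had raw counts in KO replicate 1 that exceeded the highest WT library by more than 3 counts. Cox4i2 had 18 counts there, against 0, 0 and 2 in the WT libraries and 1 in each of the other KO libraries. Cox6a2 had 24 counts there, against 0 in each WT library and 1 and 0 in the other KO libraries. On the CPM scale, KO replicate 1 was also above each WT library for the untested genes Atp5g2 (0.666 CPM, against 0.308 to 0.533 CPM) and Cox6b2 (0.888 CPM, against 0.431 to 0.697 CPM). Atp5g2 was higher still in KO replicates 2 and 3 (0.757 and 0.753 CPM), and Cox6b2 in KO replicate 2 (0.984 CPM). For Cox8b, KO replicate 1 exceeded each WT library by a margin within counting error (0.167 CPM, from 3 counts, against at most 0.164 CPM).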

How the results depend on the processing

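Of the OXPHOS genes, 16 were called higher. The count was 8 with library size only (11% of OXPHOS genes, against 9.13% of all genes), 9 with upper-quartile factors (12.3% against 9.32%), 10 with no filter on low counts (12.3% against 6.41%), 5 with GC and length offsets (6.85% against 9.43%), 2 at an FDR under 0.01 (2.74% against 4.2%), and 1 to 21 when 1 library was left out. It was 16 with RLE size factors (21.9% against 11.3%), filterByExpr (20.8% against 11.3%) or CPM above 5 (22.9% against 11.9%), 13 with 3 edgeR tests together (17.8% against 10.6%) and 24 with DESeq2 (32.9% against 14.3%), whose calls included the 16. No OXPHOS gene was called lower in any of these settings. The median log2 fold change of 0.28 was 0.20 with library size only and with upper-quartile factors, where the median over all genes was -0.061 and -0.060, was 0.15 with GC and length offsets, and was 0.23 to 0.33 with 1 library left out. Replicate numbers did not pair the libraries (correlations of deviations 0.0731, -0.0124 and -0.188, and not every library correlated best with its own number). With a replicate block 9 genes were called (12.3% against 9.1%), and with a replicate block with GC and length offsets 1 gene, a smaller share than among all genes (1.37% against 7.43%), at a median of 0.15. Genes near 0 changed sign. Cox8a, at 0.0079, was -0.0011 with RLE factors, -0.07 with library size only and upper-quartile factors, -1.3e-07 with DESeq2, -0.01 with no filter, -0.00025 with the replicate block, -0.19 with both GC and length fits, and -0.13 to 0.12 with 1 library left out. Ndufa4 was -0.04 in both GC and length fits. With 1 library left out, Atp5g1 was -0.26 to 0.11, Cox6a1 -0.13 to 0.10, Cox7a2l -0.12 to 0.0093, Cox7c -0.38 to 0.39 and Sdha -0.09 to 0.02. The cause of these differences was not tested. Leaving out a library also leaves fewer samples.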
